A study of Homo sapiens with 6 samples.

Results

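MYC and the genes of the MAX network were followed in 6 RNA sequencing libraries of prostate cancer cells treated with inhibitors of the chaperone HSP70. The 10 members are MYC, MYCN and MYCL (the MYC family), their common partner MAX, the antagonists MXD1, MXI1, MXD3, MXD4 and MNT, and the MAX-like protein MLX. They were taken as a list of gene names, drawn up with earlier results of these data known, and all 10 were found among the 60658 gene identifiers of the deposited tables. C4-2B MDVR, an enzalutamide-resistant derivative of the C4-2B line maintained with 20 µM enzalutamide in its medium, and CWR22Rv1, a line maintained without that drug, were each exposed for 48 h to the vehicle DMSO, to apoptozole (APO, 10 µM) or to VER155008 (VER, 10 µM). The sample labels give the source of the first line as LNCaP-C4-2B with a parental cell type, while the titles and the study's methods name C4-2B MDVR, which was used. APO and VER are small molecules that bind HSP70 and block its ATPase activity, and the comparison with the vehicle asks which transcripts differ once HSP70 is inhibited in cells that no longer respond to enzalutamide. Each of the 6 conditions had 1 library, so no difference given here has a replicate check within these libraries and no p-value or standard error is attached to it. Apart from these libraries, the paper reports by qRT-PCR that both inhibitors suppressed MYC. APO and VER in a line were set against the same DMSO library, and their changes are therefore not independent of each other.

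Proteins of the network carry a basic helix-loop-helix leucine zipper and bind DNA only as pairs. MYC pairs with MAX at E-box sequences and raises transcription of genes for ribosome production, metabolism and the cell cycle, whereas MXD proteins and MNT compete for MAX at the same sequences and bring SIN3 corepressor complexes. MLX forms a neighbouring branch with the glucose-responsive factors MLXIP and MLXIPL, and some MXD proteins and MNT can also pair with it. In prostate cancer MYC is frequently gained or overexpressed, and its RNA and protein both turn over quickly.

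The sequence that the network reads is shown first. The core E-box CACGTG, which reads the same on both strands, was the only motif searched and was looked for in RefSeq promoter windows of 300 bases (250 before to 50 after an annotated start site, GRCh38.p14). It was present in 7.26% of all 35116 windows and in at least 1 window of 8.77% of 27305 genes. Windows were matched for 9 members (all but MYC), and 3 of them (33.3%) held the motif, the antagonists MXD4 and MNT and the MAX-like gene MLX. Of 38 well-known MYC target genes described further on, 32 had a window and 18 of these (56.2%) held the motif. They were chosen as well-known targets, and that choice could itself set a high share. Of the genes that MYC is known to repress, 7 had a window and 0 held it. With 7 genes, 0 cannot be told from the 8.77% over all genes, and the lists are not compared. Up to 30 bases on either side of the first E-box are printed for the 3 members and for 3 of the target genes named below, chosen as well-known targets that hold the motif, with the motif in capitals, 5′ to 3′ on the strand of the gene. The stretches lie at chr4:2262312-2262359 (minus strand, first base of the E-box at -238 from the start site) for MXD4, chr17:2401218-2401283 (minus, -193) for MNT, chr17:42567020-42567085 (plus, -50) for MLX, chr11:18394348-18394413 (plus, -185) for LDHA, chr1:28518006-28518071 (plus, -190) for RCC1 and chr12:57752491-57752556 (minus, -216) for CDK4. A match describes these letters only, and binding was not measured.
MXD4: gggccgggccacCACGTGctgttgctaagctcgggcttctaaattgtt
MNT: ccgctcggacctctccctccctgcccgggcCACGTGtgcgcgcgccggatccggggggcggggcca
MLX: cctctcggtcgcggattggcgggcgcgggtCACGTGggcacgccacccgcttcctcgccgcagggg
LDHA: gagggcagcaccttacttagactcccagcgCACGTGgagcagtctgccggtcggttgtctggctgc
RCC1: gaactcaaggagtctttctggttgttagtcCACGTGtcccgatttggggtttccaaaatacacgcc
CDK4: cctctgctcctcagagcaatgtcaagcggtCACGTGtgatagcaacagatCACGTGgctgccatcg

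All levels are FPKM, the fragments of a gene scaled by its length and by the reads of its library, so levels of different genes can be set side by side. Changes are log2(FPKM + 0.1) of the treated minus that of the DMSO library, a scale that understates the change of genes near or below 0.1 FPKM, and folds are ratios of the FPKM themselves. A gene entered the comparison in a line when any of the 3 libraries put it above 0.1 FPKM, 20122 for C4-2B MDVR and 21608 for CWR22Rv1. Relative depth, read from the spacing of low values, ranged from 1 to 1.64 over the libraries, and 17603 to 19376 genes lay above 0.1 FPKM. Prostate epithelial markers were present in every library, where the 9 genes summed to between 1022 and 1501 FPKM. Of these, 6, 6, 5 and 5 were more than 1.2-fold lower (66.7%, 66.7%, 55.6% and 55.6%) and 3, 1, 2 and 2 higher (33.3%, 11.1%, 22.2% and 22.2%). The order is APO and VER for C4-2B MDVR, then for CWR22Rv1. Over all genes compared, 35.4%, 34.9%, 39.2% and 32.3% were lower and 37.7%, 35.6%, 35.6% and 32.1% higher, shares that also stand beside the marker counts that follow. The 10 markers of leukocytes, endothelium, fibroblasts and muscle, and neuroendocrine cells summed to between 8.29 and 72.9 FPKM, with PECAM1 listed at 0 in all 6 libraries and PTPRC in 5 of them. The upper end came from CWR22Rv1 cells, in which the neuroendocrine marker SYP stood at 49.56, 30.02 and 49.99 FPKM under DMSO, APO and VER, and 6 or 7 of these markers entered each comparison, with 4, 4, 2 and 1 higher and 2, 0, 3 and 0 lower. The part of either list in the values below was not tested. In RNA from a whole culture, fewer cells with a transcript and less of it per cell cannot be told apart.

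Among the members, MYC was lower with both inhibitors in both lines, with the larger difference under APO. MYCL was higher under APO, MXD1, MXI1 and MXD4 were higher with either inhibitor, and MXD3 was lower, most of all under VER for C4-2B MDVR. MAX and MLX, the shared partners, stayed within a narrow range. A gene was counted when it differed from DMSO by more than 1.2-fold, the study's own threshold, and again at 2-fold.

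**Figure D1:**
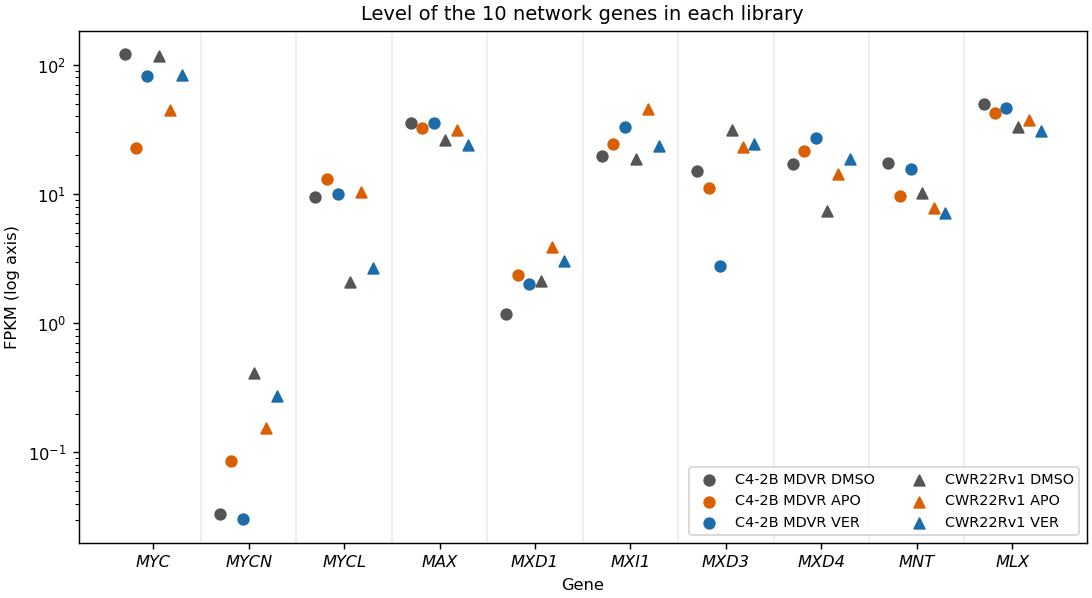
FPKM (log axis) of the 10 network genes in each of the 6 libraries, with 1 point per library, circles for C4-2B MDVR, triangles for CWR22Rv1 and colour for the treatment. MYC spans 22.6 to 120.5 FPKM with its lowest points under APO, MXD3 drops to 2.80 in the C4-2B MDVR VER library, and MYCN lies below all other members.

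MYC (ENSG00000136997, GENCODE 29 on GRCh38, chr8:127735434-127741434, plus strand) was the most abundant member under DMSO in both lines. For C4-2B MDVR it stood at 120.5 FPKM under DMSO, 22.6 under APO and 82.3 under VER. CWR22Rv1 cells gave 118 FPKM under DMSO, 44.8 under APO and 83.0 under VER. The order DMSO, VER, APO from high to low was thus the same in each line, and the 2 DMSO libraries were nearly equal (a log2 difference of -0.04, CWR22Rv1 minus C4-2B MDVR). The level under APO was 5.34-fold below DMSO for C4-2B MDVR (log2 change -2.41) and 2.63-fold below it for CWR22Rv1 (-1.39). Of all genes compared, 2.01% and 10.2% had a change at least as low. With VER the level was 1.46-fold (-0.55) and 1.42-fold (-0.50) below DMSO, a change that 23.6% and 20.5% of genes reached. At the same dose and time, MYC was higher under VER than under APO by 1.86 on the log2 scale for C4-2B MDVR and by 0.89 for CWR22Rv1.

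MYCL (ENSG00000116990, chr1:39895426-39902256, minus strand), the family member first found in lung cancer, went the other way. Its level for C4-2B MDVR was 9.42 FPKM under DMSO, 13.1 under APO and 9.99 under VER. For CWR22Rv1 it was 2.07 FPKM under DMSO, 10.3 under APO and 2.69 under VER. The APO library was the highest of each line, 1.39-fold above DMSO for C4-2B MDVR (log2 change 0.48) and 4.98-fold above it for CWR22Rv1 (2.26), where 2.84% of genes had a change at least as high. VER gave changes of 0.08 and 0.36. MYCN (ENSG00000134323, chr2:15940564-15947007, plus strand), the family member of neural tissue and of neuroendocrine tumours, lay at 0.03, 0.09 and 0.03 FPKM for C4-2B MDVR under DMSO, APO and VER, under the floor of 0.1, and was not compared there. It stood at 0.41 FPKM under DMSO, 0.15 under APO and 0.27 under VER for CWR22Rv1, with log2 changes of -1.01 and -0.46. These are levels close to the floor.

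MYC made up most of the family sum in every library. Its share was 92.7% under DMSO, 63.1% under APO and 89.1% under VER for C4-2B MDVR, and 97.9%, 81.0% and 96.6% for CWR22Rv1. MYCL accounted for nearly all of the rest, reaching 36.7% and 18.7% of the family sum under APO in the C4-2B MDVR and CWR22Rv1 lines.

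MAX (ENSG00000125952, chr14:65006174-65102695, minus strand), the partner with which MYC binds DNA and for which its antagonists compete, varied little. It stood at 35.5 FPKM under DMSO, 32.5 under APO and 35.8 under VER for C4-2B MDVR. CWR22Rv1 libraries held 26.1, 31.5 and 24.0 FPKM in the same order. The 6 values span 24.0 to 35.8 FPKM, and the log2 change was past 1.2-fold only under APO for CWR22Rv1 (0.27, just over the threshold), where it fell short of it after rescaling to a median ratio of 1 (0.26) or to the sum of non-mitochondrial FPKM (0.12). The changes were -0.13 under APO and 0.01 under VER for C4-2B MDVR and -0.12 under VER for CWR22Rv1. FNTB, which overlaps MAX on the opposite strand, was measured at 5.94 to 8.85 FPKM. Whether reads were counted by strand is not given in the sources used here, so reads of the 2 genes may not be fully separated.

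The antagonists did not move as a block. MXD1, MXI1 and MXD4 were above DMSO in all 4 comparisons, and MXD3 and MNT were below DMSO in all 4. Each of these 20 changes was past 1.2-fold except that of MNT under VER for C4-2B MDVR.

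MXD1 (ENSG00000059728, chr2:69897688-69942945, plus strand), an antagonist induced as cells differentiate, was the least abundant of the group. It measured 1.17, 2.38 and 2.01 FPKM under DMSO, APO and VER for C4-2B MDVR and 2.13, 3.87 and 3.05 FPKM for CWR22Rv1. Both inhibitors gave higher values than DMSO in each line, and APO gave the higher of the treated values. The log2 changes were 0.97 under APO and 0.73 under VER for C4-2B MDVR and 0.83 and 0.50 for CWR22Rv1. SNRNP27, which overlaps MXD1 on the same strand, was higher as well (0.46, 0.30, 0.78 and 0.23 in the same order).

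MXI1 (ENSG00000119950, chr10:110207605-110287365, plus strand), also known as MXD2, ranked differently in the lines. Its levels were 19.6 FPKM under DMSO, 24.5 under APO and 33.2 under VER for C4-2B MDVR, so that VER was the highest. They were 18.8 FPKM under DMSO, 45.4 under APO and 23.4 under VER for CWR22Rv1, so that APO was. The log2 changes were 0.32 and 0.75 for C4-2B MDVR under APO and VER, and 1.27 and 0.32 for CWR22Rv1. The change of 1.27 corresponds to 2.42-fold, and 9.50% of genes compared had one at least as high.

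MXD4 (ENSG00000123933, chr4:2247432-2262294, minus strand), whose E-box is shown above, was lowest under DMSO and highest under VER in each line. It measured 17.0, 21.5 and 27.4 FPKM for C4-2B MDVR and 7.38, 14.4 and 18.7 FPKM for CWR22Rv1. The changes under APO were 0.34 and 0.95 and those under VER 0.69 and 1.33, given for C4-2B MDVR first. The VER library of CWR22Rv1 cells held 2.53 times the FPKM of its DMSO library, the largest difference among the members under VER in that line.

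MXD3 (ENSG00000213347, chr5:177301461-177312757, minus strand) is the family member that is expressed in S phase of proliferating cells. For C4-2B MDVR it stood at 15.1 FPKM under DMSO, 11.2 under APO and 2.80 under VER. For CWR22Rv1 the values were 31.5, 23.2 and 24.6 FPKM. VER for C4-2B MDVR thus stood apart from the other 3 comparisons, 5.40-fold below DMSO (log2 change -2.39, reached by 2.98% of genes), while the others lay between -0.36 and -0.44. The level under VER was lower than under APO by 1.97 on the log2 scale for C4-2B MDVR, whereas for CWR22Rv1 the 2 differed by 0.08. RAB24 overlaps MXD3 on the same strand and was higher with every treatment (24.1, 80.6 and 67.6 FPKM under DMSO, APO and VER for C4-2B MDVR and 27.3, 81.4 and 33.8 for CWR22Rv1), so reads shared by the 2 genes could be split between them in more than 1 way. PRELID1 overlaps MXD3 on the opposite strand at 119 to 246 FPKM, far above MXD3. Its log2 changes under APO and VER were -0.09 and -0.47 for C4-2B MDVR and 0.11 and -0.26 for CWR22Rv1. Its reads may not be fully separated from those of MXD3 either.

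MNT (ENSG00000070444, chr17:2384060-2401118, minus strand), the antagonist present in both resting and growing cells, was lower under APO in each line. Its FPKM was 17.4 under DMSO, 9.69 under APO and 15.7 under VER for C4-2B MDVR and 10.2, 7.81 and 7.08 for CWR22Rv1. APO gave the lowest value in the first line and VER in the second. The log2 changes were -0.84 and -0.14 under APO and VER for C4-2B MDVR and -0.38 and -0.52 for CWR22Rv1.

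MLX (ENSG00000108788, chr17:42567068-42573239, plus strand) was, like MAX, nearly level. It measured 49.5, 42.7 and 46.5 FPKM under DMSO, APO and VER for C4-2B MDVR and 33.3, 37.4 and 31.0 FPKM for CWR22Rv1, and each of its 4 changes lay within 1.2-fold (from -0.21 to 0.17). PSMC3IP overlaps MLX on the opposite strand and was lower in every treated library (log2 changes from -2.09 to -0.81).

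**Figure D2:**
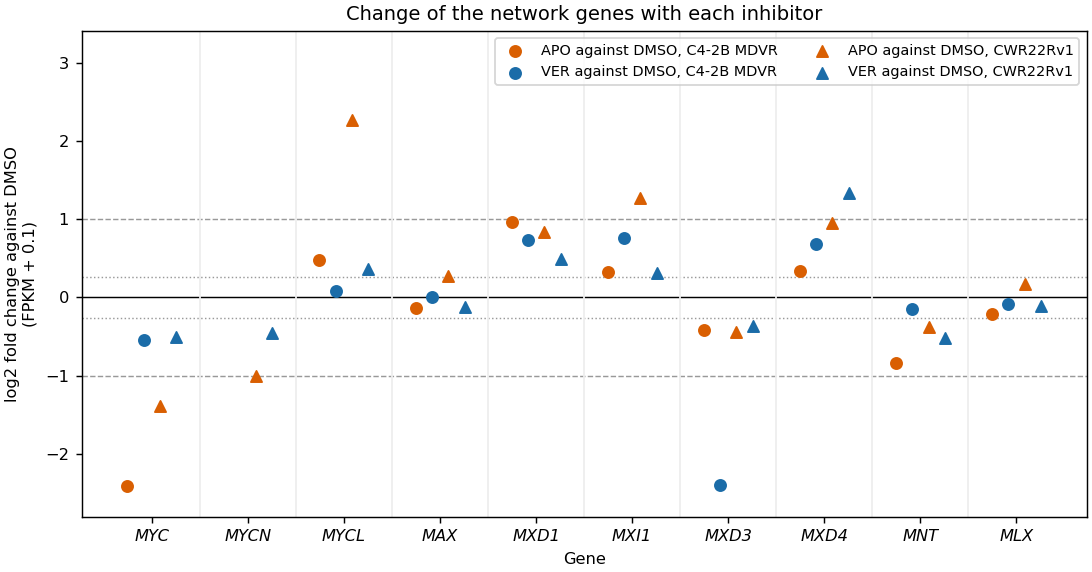
Log2 change of each network gene against DMSO of the same line, with 1 point per comparison, orange for APO, blue for VER, circles for C4-2B MDVR and triangles for CWR22Rv1. Dotted lines mark 1.2-fold and dashed lines 2-fold, and MYC under APO (-2.41 and -1.39), MXD3 under VER in C4-2B MDVR (-2.39) and MYCL under APO for CWR22Rv1 (2.26) lie farthest from 0.

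The counts of members past each threshold stand here beside those over all genes. With APO for C4-2B MDVR 4 of the 9 compared members were higher by more than 1.2-fold and 3 were lower, while over all genes 37.7% were higher and 35.4% lower. After TPM scaling that split was 2 members higher and 5 lower. With VER in that line 3 members were higher and 2 lower, against 35.6% and 34.9% of all genes. For CWR22Rv1 5 of 10 members were higher and 4 lower under APO (35.6% and 39.2% of all genes), and 4 were higher and 4 lower under VER (32.1% and 32.3%). At 2-fold, APO for C4-2B MDVR left 0 members higher (15.4% of all genes) and 1 lower, MYC (13.3%), and VER left 0 higher (14.4%) and 1 lower, MXD3 (13.3%). For CWR22Rv1 2 members, MYCL and MXI1, were more than 2-fold higher under APO (13.8%) and 2, MYC and MYCN, lower (16.8%), while under VER 1, MXD4, was higher (10.8%) and 0 were lower (8.92%). With so few members 1 gene shifts a share by 10% or more, and nothing is read from these counts.

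Since FPKM is scaled by length, the antagonists and the MYC family can be summed. The MYC family summed to 129.9 FPKM under DMSO, 35.8 under APO and 92.3 under VER for C4-2B MDVR and to 120.02, 55.3 and 86.0 FPKM for CWR22Rv1. The antagonists summed to 70.3, 69.3 and 81.1 FPKM for C4-2B MDVR and to 70.1, 94.6 and 76.8 FPKM for CWR22Rv1. With DMSO the antagonists thus held 0.541 and 0.584 times the family sum in the C4-2B MDVR and CWR22Rv1 lines. With APO the order turned, and the ratio was 1.94 and 1.71. With VER it came to 0.878 and 0.893. On the log2 scale the ratio was above DMSO by 1.84 under APO and 0.70 under VER for C4-2B MDVR and by 1.55 and 0.61 for CWR22Rv1. For C4-2B MDVR under APO the antagonist sum was 0.987 times that under DMSO, so the ratio followed the MYC family there, whereas for CWR22Rv1 under APO it was 1.35 times that under DMSO. The ratio is taken within each library and does not depend on how libraries are scaled to each other.

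**Figure D3:**
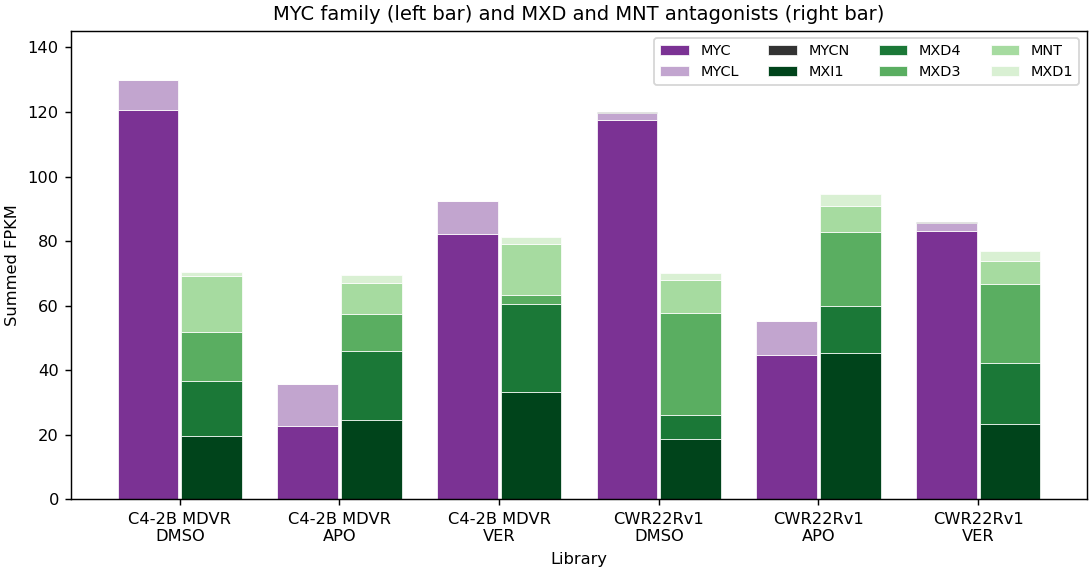
Summed FPKM of the MYC family (left, purple bar) and of the 5 antagonists (right, green bar) in each of the 6 libraries, with 1 segment per gene and 1 library per pair of bars. The left bar is the taller one under DMSO and VER, and the right bar is the taller one under APO in both lines (69.3 against 35.8 FPKM for C4-2B MDVR and 94.6 against 55.3 in CWR22Rv1).

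The makeup of the antagonist sum differed between libraries as well. MXD3 held 21.5% of it under DMSO, 16.2% under APO and 3.45% under VER for C4-2B MDVR, and 45.02%, 24.5% and 32.0% for CWR22Rv1. MXI1 was the leading antagonist in 4 libraries, all C4-2B MDVR libraries and the CWR22Rv1 APO library, where it held 48.0%, while MXD3 led for CWR22Rv1 under DMSO and VER. MXD4 held 24.2% under DMSO and 33.8% under VER for C4-2B MDVR and 10.5% and 24.3% for CWR22Rv1.

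Between the lines under DMSO, 4 of the 10 members differed by more than 2-fold. MYCN and MXD3 were higher in CWR22Rv1 (log2 differences of 1.93 and 1.06), and MYCL and MXD4 were lower (-2.13 and -1.19). For MYCN, with 0.03 and 0.41 FPKM, the difference was 0.45 with a pseudocount of 1. Over 20903 genes compared, 27.2% were more than 2-fold higher in CWR22Rv1 and 19.4% lower. Of the remaining members MXD1 was higher in CWR22Rv1 by 0.81 and MNT, MLX and MAX lower by 0.76, 0.57 and 0.45 on that scale, and MXI1 (-0.06) and MYC were nearly equal. The lines also differ in the enzalutamide of their maintenance medium, and line and medium cannot be told apart.

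The genes around the network were described by lists of well-known members. Their counts are to be set beside the shares of all genes past 1.2-fold, in the order APO and VER for C4-2B MDVR, then for CWR22Rv1. These were 35.4%, 34.9%, 39.2% and 32.3% lower and 37.7%, 35.6%, 35.6% and 32.1% higher. The median change over all genes was 0 for C4-2B MDVR and -0.01 or nearer to 0 for CWR22Rv1.

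Genes that MYC is known to activate were mostly lower with both inhibitors. Of 38 such genes, 29 were lower by more than 1.2-fold under APO and 32 under VER for C4-2B MDVR, and 23 and 29 for CWR22Rv1, while 4, 1, 6 and 1 were higher. The median changes were -0.65, -0.74, -0.38 and -0.48. At 2-fold, 11 and 8 (28.9% and 21.1%) were lower for C4-2B MDVR under APO and VER, against 13.3% of all genes under each. For CWR22Rv1 5 and 3 (13.2% and 7.89%) were lower, which is under the 16.8% and 8.92% of all genes. The lists were drawn up with results of these libraries known and carry no test.

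Among 14 nucleolar and ribosome genes, 12 and 13 were lower under APO and VER for C4-2B MDVR and 8 and 12 for CWR22Rv1. NOP56, a core protein of the box C/D snoRNPs, stood at 182 FPKM under DMSO, 59.6 under APO and 61.1 under VER for C4-2B MDVR and at 231, 74.6 and 108 for CWR22Rv1, with log2 changes of -1.61, -1.58, -1.63 and -1.09. BOP1, needed for processing of the large subunit rRNA, changed by -1.42, -1.03, -0.94 and -0.89. At the other end of the list GNL3, the nucleolar protein nucleostemin, was higher under APO in both lines (0.59 and 0.39) and differed by 0.02 and -0.34 under VER. NPM1, a histone chaperone of the nucleolus, gave -0.08 and -0.52 for C4-2B MDVR and 0.43 and -0.19 for CWR22Rv1 under APO and VER.

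Among 14 metabolic targets, 9 and 10 were lower for C4-2B MDVR and 8 and 8 for CWR22Rv1. LDHA, the lactate dehydrogenase subunit whose promoter E-box is printed above, stood at 489 FPKM under DMSO, 232 under APO and 168 under VER for C4-2B MDVR and at 405, 236 and 208 for CWR22Rv1. CAD, which starts pyrimidine synthesis, changed by -1.53, -1.37, -1.06 and -0.88. SHMT2, the mitochondrial serine hydroxymethyltransferase, went against the list, at 177, 536 and 420.4 FPKM for C4-2B MDVR and 294, 715 and 359 for CWR22Rv1 under DMSO, APO and VER (log2 changes of 1.60, 1.25, 1.28 and 0.29). HSPD1, the mitochondrial chaperonin, was past 1.2-fold only under APO for C4-2B MDVR (0.36).

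Of 10 cell cycle and translation targets, 8 and 9 were lower for C4-2B MDVR and 7 and 9 for CWR22Rv1. CDC25A, the phosphatase that activates CDK2 for S phase, stood at 23.3 FPKM under DMSO, 3.94 under APO and 5.03 under VER for C4-2B MDVR and at 13.6, 5.12 and 6.24 for CWR22Rv1 (log2 changes of -2.53, -2.19, -1.39 and -1.11). RCC1, the exchange factor of RAN with an E-box printed above, changed by -1.35, -1.63, -0.69 and -1.22. CDK4, with more than 1 E-box in its window, gave -0.21, -0.86, 0.19 and -0.29. CCND2 was listed between 0.09 and 0.25 FPKM in the 6 libraries, too close to the floor for its changes to be read.

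The 10 genes that MYC is known to repress were split. With APO and VER 5 and 4 were higher and 4 and 3 lower for C4-2B MDVR, and 6 and 7 were higher and 3 and 2 lower for CWR22Rv1, with medians of 0.19, 0.16, 0.88 and 0.52. CDKN1A, the CDK inhibitor p21, stood at 54.5 FPKM under DMSO, 232 under APO and 855 under VER for C4-2B MDVR and at 41.3, 172 and 359 for CWR22Rv1, highest under VER in each line. CDKN2B, the CDK inhibitor p15, went from 0.25 to 3.43 FPKM under APO and 1.75 under VER for C4-2B MDVR and from 1.78 to 5.71 and 2.53 for CWR22Rv1. THBS1, an inhibitor of blood vessel growth, was below DMSO in all 4 comparisons (-0.30, -1.67, -1.24 and -1.08), and GAS1 lay at or under 0.59 FPKM in every library.

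**Figure D4:**
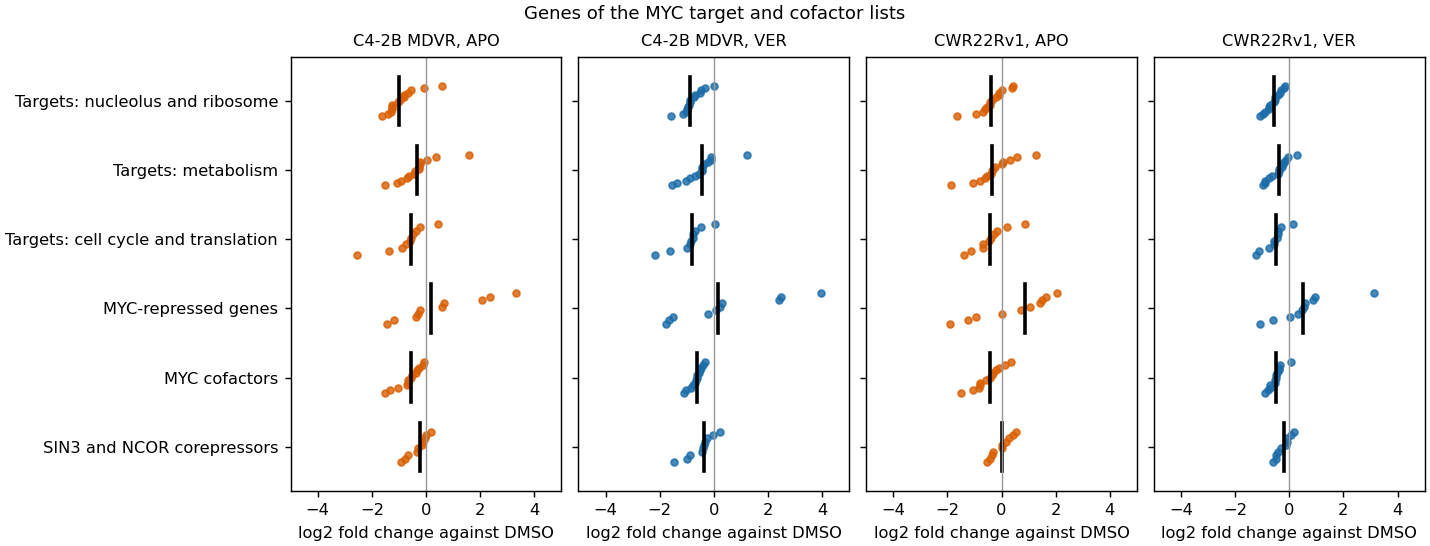
Log2 change against DMSO of each gene of 6 lists around MYC, with 1 panel per comparison, 1 point per gene and a black bar at the median of the list. The 3 target lists and the MYC cofactors have medians below 0 in every panel, and the MYC-repressed genes spread widely to both sides with medians between 0.16 and 0.88.

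MYC cofactors, the enzymes and adaptors through which MYC opens chromatin, were lower by more than 1.2-fold in most cases. Of 13 genes, 10 and 13 were lower under APO and VER for C4-2B MDVR and 9 and 12 for CWR22Rv1, with medians of -0.56, -0.63, -0.42 and -0.51. At 2-fold, 3 and 2 (23.1% and 15.4%) were lower for C4-2B MDVR, against 13.3% of all genes under each inhibitor. For CWR22Rv1 2 and 0 (15.4% and 0%) were lower, which is under the 16.8% and 8.92% of all genes. KAT2A, the histone acetyltransferase GCN5, stood at 51.7 FPKM under DMSO, 20.6 under APO and 29.1 under VER for C4-2B MDVR and at 45.5, 16.0 and 31.9 for CWR22Rv1, the same order as MYC. HCFC1, a chromatin adaptor that binds MYC, changed by -1.02, -1.04, -1.04 and -0.88. KAT5, the acetyltransferase TIP60, was past 1.2-fold only for C4-2B MDVR (-0.32 and -0.64).

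Corepressor genes, whose products the MXD proteins and MNT recruit, changed less. Of 10 genes 5 and 7 were lower for C4-2B MDVR (35.4% and 34.9% of all genes) and 4 and 5 for CWR22Rv1 (39.2% and 32.3%). Under APO for CWR22Rv1 3 were also higher (35.6% of all genes), so both counts there were near the shares over all genes. The medians were -0.23, -0.38, 0.02 and -0.20. After TPM scaling the split under APO for CWR22Rv1 was 4 higher and 2 lower. RBBP7, a histone-binding subunit, was lower throughout (-0.77, -0.88, -0.54 and -0.51). SAP30, a SIN3 subunit, was lower mainly under VER for C4-2B MDVR, where it stood at 6.70, 6.49 and 2.36 FPKM under DMSO, APO and VER. SAP18 was higher under APO for CWR22Rv1 (0.53), and RBBP4 was past 1.2-fold only there (0.29).

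The MLX branch and MGA comprised 5 genes. MGA, a MAX partner of a Polycomb complex, was lower in all 4 comparisons (-1.02, -0.53, -0.54 and -0.30). MLXIPL, the factor ChREBP, was lower under APO for CWR22Rv1 alone, at 5.60, 1.90 and 5.95 FPKM under DMSO, APO and VER. TXNIP, a glucose-responsive target of MLX dimers that limits glucose uptake, stood at 62.6, 37.9 and 79.5 FPKM for C4-2B MDVR and at 201, 243 and 176 FPKM for CWR22Rv1. ARRDC4, a related arrestin, was past 1.2-fold only under VER for C4-2B MDVR (0.40).

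Genes of MYC protein turnover act after transcription and were described because RNA levels do not show the protein. Of 18 genes 10 and 11 (55.6% and 61.1%) were lower for C4-2B MDVR under APO and VER, against 35.4% and 34.9% of all genes. For CWR22Rv1 6 and 10 (33.3% and 55.6%) were lower, against 39.2% and 32.3%, so the share under APO was below that over all genes. In the same order, 1, 4, 3 and 2 were higher. After TPM scaling the split under APO for CWR22Rv1 was 7 higher and 3 lower. PLK1, a mitotic kinase that stabilises MYC proteins, stood at 92.6 FPKM under DMSO, 44.5 under APO and 3.84 under VER for C4-2B MDVR and at 52.2, 43.0 and 13.5 for CWR22Rv1. CIP2A, which shields MYC from the phosphatase PP2A, changed by -1.15, -2.68, -0.95 and -1.28. The ubiquitin ligase gene FBXW7, which marks MYC for degradation, was higher under VER for C4-2B MDVR (0.68) and just over the threshold for CWR22Rv1 (0.27), where a pseudocount of 1, TPM scaling or non-mitochondrial scaling ended the call, and gave 0.21 and 0.25 under APO, within 1.2-fold. FBXO32, another ligase of MYC, stood at 1.70, 2.25 and 4.42 FPKM for C4-2B MDVR and at 0.47, 3.83 and 2.95 FPKM for CWR22Rv1. STUB1, the HSP70-bound ubiquitin ligase at the centre of the study, stayed between 114 and 145.2 FPKM in all 6 libraries.

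MYC's chromosomal neighbourhood held 22 annotated genes within 1 Mb of its start, of which 4 passed the floor for C4-2B MDVR and 7 for CWR22Rv1, and 2 reached 1 FPKM in any library. PVT1 (chr8:127794533-128101253, plus strand), a long noncoding RNA gene whose promoter can compete with that of MYC for shared enhancers, stood at 142 FPKM under DMSO, 32.0 under APO and 464 under VER for C4-2B MDVR. For CWR22Rv1 it stood at 18.6, 13.3 and 18.4 FPKM. With APO both genes were below DMSO for C4-2B MDVR, by -2.41 for MYC and -2.15 for PVT1 on the log2 scale, while under VER PVT1 was higher by 1.71 and MYC lower. For CWR22Rv1 the changes of PVT1 were -0.48 under APO and -0.02 under VER. RF02164, a short RNA annotated within PVT1, is the other gene above 1 FPKM. It stood at 25.6, 132 and 143 FPKM for C4-2B MDVR under DMSO, APO and VER and at 171, 35.1 and practically 0 FPKM for CWR22Rv1, values that did not follow those of PVT1. Its log2 change under APO for C4-2B MDVR was 2.35, opposite to PVT1, and reads of the 2 genes cannot be fully separated.

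**Figure D5:**
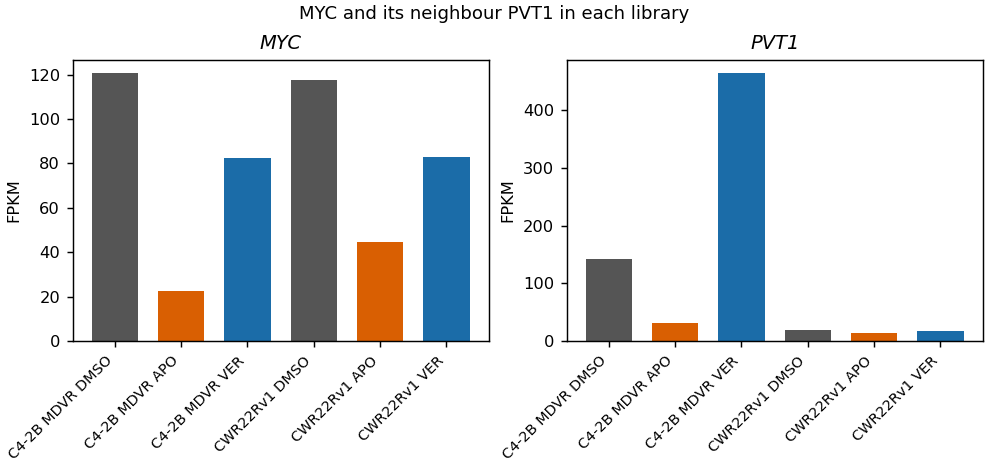
FPKM of MYC (left) and of its neighbour PVT1 (right) in each of the 6 libraries, with 1 bar per library and axes that start at 0. MYC is highest under DMSO in both lines, whereas PVT1 is highest in the C4-2B MDVR VER library (464 FPKM) and below 20 FPKM for CWR22Rv1.

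Likeness of pattern was measured as the Euclidean distance between the 4 log2 changes of a gene and those of a member, among the 14172 genes that averaged 1 FPKM or more, and the values of a line share its DMSO library. Few genes lay near MYC, with 2 within a distance of 0.5. The closest 5 were AHNAK (0.42), Z83851.2 (0.50), AP006621.3 (0.53), HES7 (0.60) and AC012513.3 (0.63), and AHNAK stood at 7.05, 1.31 and 4.30 FPKM for C4-2B MDVR and 11.9, 3.57 and 9.75 FPKM for CWR22Rv1. MXD3 and MYCL had 4 genes each within 0.5, led by DEPDC1, PCOLCE2 and CENPU for MXD3 and by TTC39C, LINC01287 and MAPK6 for MYCL. MXD4 had 32 (ZNF229, CHRNB4 and SLC16A9 the closest), MXI1 87 (TLDC1, S100A11 and MVP), MNT 290 (LENG9, RAP1GAP2 and TFEB) and MXD1 305 (KDM4A, TOM1 and ALS2CL). For C4-2B MDVR, LINC01287 reached at most 0.05 FPKM and CHRNB4 at most 0.06 FPKM, under the floor of 0.1. Their changes in that line are set by the pseudocount, and their likeness rests on CWR22Rv1. The nearly level MAX and MLX had 1454 and 1530 genes within 0.5, led by DCUN1D5, PITPNA and AVPI1 for MAX and by PPP2R2D, ARHGEF18 and RNF34 for MLX. Such counts tend to fall as a member lies farther from 0, where genes are sparse. A low count is therefore not read as an unusual pattern.

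The scaling of the libraries bears on these values. Genes of the mitochondrial chromosome held 25.7% of all FPKM under DMSO and under VER for CWR22Rv1 and 10.4% under APO, against 14.8% to 16.4% for C4-2B MDVR. Libraries were rescaled to equal sums (TPM) or to equal sums without mitochondrial genes. The median compared here was taken with the floor raised to 1 FPKM, and so not over all genes. Under APO this median moved from 0.02 to -0.12 and -0.14 for C4-2B MDVR and from -0.01 to 0.10 and -0.16 for CWR22Rv1. No member changed direction in any of the 4 comparisons under these scalings.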

How the data were processed

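Paired-end RNA sequencing covered both lines, with 1 library in each of 6 conditions. The authors aligned reads and deposited FPKM values per gene, normalized by Cuffnorm. The submitters' processing notes name HISAT, Cufflinks, Cuffnorm and GRCh38. The study's text describes a TruSeq kit and the labels a stranded poly(A) kit. The deposited FPKM tables carry no read totals, so no count test, interval or detection limit was computed, and a gene at 0 is only listed at 0. Genes were named and placed by GENCODE 29 (57047 of 60658 identifiers matched).

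Changes are differences of log2(FPKM + 0.1). Each condition had 1 library, a fit with the lines as blocks was not run, and no test is given. A gene was counted past 1.2-fold, or 2-fold. The members and lists were chosen with earlier results of these data known. The genes named are all members, from each other list the 2 highest and 2 lowest by mean change, STUB1, TXNIP and ARRDC4, the 5 genes closest to MYC in pattern, the 3 closest to each other member, and neighbours of MYC of at least 1 FPKM. A gene covered by this rule is not reported here. Genes overlapping members, and SYP, PECAM1 and PTPRC among the markers, were named after their values were seen. Alternatives were other pseudocounts, filters, scalings and thresholds, and protein-coding genes only. The functions were tested on simulated data. Python 3.11.15, pandas 2.3.3, numpy 2.4.6 and matplotlib 3.10.9 were used.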

Additional observations from a re-analysis of the deposited data

Results flagged for a closer look

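In 103 genes of the lists compared in both lines, a gene was marked where it was past 1.2-fold in one direction in C4-2B MDVR and in the other direction in CWR22Rv1 cells under the same inhibitor. With 1 library per condition, none of these differences was tested. There were 5 such genes with APO and 2 with VER, and 0 of them were members of the network. The share of such genes over all genes was not computed, so nothing is read from these counts.

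With APO, TXNIP was lower in C4-2B MDVR (log2 change -0.72) and higher in CWR22Rv1 cells (0.28), a difference of 1.002 (CWR22Rv1 minus C4-2B MDVR, as for all differences here). SET, an inhibitor of PP2A, changed by -0.33 and 0.34, a difference of 0.67. ODC1, the first enzyme of polyamine synthesis, changed by -0.71 and 0.57, a difference of 1.29. IMPDH2, an enzyme of guanine nucleotide synthesis, changed by -0.39 and 0.33, a difference of 0.72. CEBPA, a transcription factor of differentiation, changed by -0.38 and 1.04, a difference of 1.42. With VER, NDRG2 changed by 0.29 and -0.58, a difference of -0.88. GAS1 changed by -1.77 and 0.87 with VER, a difference of 2.64, at levels of 0.59 FPKM or less.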

How the results depend on the processing

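No paired analysis was possible because each condition of a line has 1 library, and a fit with the 2 lines as blocks was not run. Depth could be compared only in relative terms and gives no error for a value. No change of a single member and no ratio changed sign under any alternative, but some splits of higher and lower counts turned. Over all genes under APO, 7582 higher and 7118 lower for C4-2B MDVR became 6456 and 8508 with TPM scaling, and 7692 and 8477 for CWR22Rv1 became 8715 and 7669. The members under APO for C4-2B MDVR turned from 4 higher and 3 lower to 2 and 5, and under APO for CWR22Rv1 the turnover genes turned from 3 and 6 to 7 and 3 and the corepressors from 3 and 4 to 4 and 2. The log2 change of the antagonist to MYC family ratio kept its side in 16 of 16 recomputations. It ranged from 1.70 to 2.39 under APO and 0.50 to 0.76 under VER for C4-2B MDVR and from 1.47 to 1.82 and 0.37 to 0.63 for CWR22Rv1. The low end of each range came from leaving MXD4 out of the antagonist sum. Other pseudocounts could hardly move the ratio, being small beside family sums of 35.8 FPKM or more. MYC alone replaced a sum of which it held 63.1% or more in every library. These recomputations are therefore a weak check. Of the changes of single members, 288 kept their side of 1.2-fold, 9 fell short of it and 5 passed it. The settings of the FPKM filter only decide whether a member is listed and leave its change as it is. Their 38, 38 and 36 kept values within the 288 were therefore fixed in advance and say nothing on stability. MXI1 and MXD4 under APO for C4-2B MDVR fell short with TPM scaling (0.17 and 0.19) and with scaling to non-mitochondrial FPKM (0.16 and 0.18), which made 2 members higher and 5 lower there, since MAX (-0.28 and -0.29) and MLX (-0.36 and -0.37) then passed. MAX under APO for CWR22Rv1 fell short as given in the report, MLX there passed with TPM scaling (0.28), MXI1 under VER fell short with both scalings (0.25), and MYCN under VER fell short with a pseudocount of 1 (-0.15), which also brought its line difference to 0.45. 

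Counts moved most with the threshold, which by construction leaves fewer genes. They are given in the order APO and VER for C4-2B MDVR, then APO and VER for CWR22Rv1. For members higher, 1, 3, 4 and 1 passed 1.5-fold and 0, 0, 2 and 1 passed 2-fold. For members lower, 2, 1, 2 and 0 passed 1.5-fold and 1, 1, 2 and 0 passed 2-fold. For all genes higher, 5071, 4767, 5137 and 4135 passed 1.5-fold and 3098, 2907, 2980 and 2340 passed 2-fold. For all genes lower, 4648, 4512, 5932 and 3771 passed 1.5-fold and 2679, 2677, 3623 and 1928 passed 2-fold. For nucleolar targets higher, 1, 0, 0 and 0 passed 1.5-fold and 0, 0, 0 and 0 passed 2-fold. For nucleolar targets lower, 11, 10, 4 and 6 passed 1.5-fold and 7, 3, 1 and 1 passed 2-fold. The metabolic targets higher numbered 1, 1, 1 and 0 at 1.5-fold and 1, 1, 1 and 0 at 2-fold. The metabolic targets lower numbered 5, 5, 4 and 5 at 1.5-fold and 2, 3, 2 and 0 at 2-fold. The cell cycle and translation targets higher numbered 0, 0, 1 and 0 at 1.5-fold and 0, 0, 0 and 0 at 2-fold. The cell cycle and translation targets lower numbered 4, 8, 4 and 3 at 1.5-fold and 2, 2, 2 and 2 at 2-fold. The MYC-repressed genes higher numbered 5, 3, 6 and 3 at 1.5-fold and 3, 3, 5 and 1 at 2-fold. The MYC-repressed genes lower numbered 2, 3, 3 and 1 at 1.5-fold and 2, 3, 2 and 1 at 2-fold. The MYC cofactors higher numbered 0, 0, 0 and 0 at 1.5-fold and 0, 0, 0 and 0 at 2-fold. The MYC cofactors lower numbered 6, 8, 6 and 4 at 1.5-fold and 3, 2, 2 and 0 at 2-fold. The corepressors higher numbered 0, 0, 0 and 0 at 1.5-fold and 0, 0, 0 and 0 at 2-fold. The corepressors lower numbered 3, 3, 0 and 1 at 1.5-fold and 0, 1, 0 and 0 at 2-fold. The turnover genes higher numbered 0, 2, 2 and 1 at 1.5-fold and 0, 1, 1 and 1 at 2-fold. The turnover genes lower numbered 5, 6, 2 and 4 at 1.5-fold and 3, 4, 0 and 3 at 2-fold. The MLX branch genes higher numbered 0, 0, 0 and 0 at 1.5-fold and 0, 0, 0 and 0 at 2-fold. The MLX branch genes lower numbered 2, 0, 1 and 0 at 1.5-fold and 1, 0, 1 and 0 at 2-fold.

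Other settings moved few counts by over 1.5 times, and for these the cause was not tested. With TPM scaling the turnover genes higher were 0 under APO for C4-2B MDVR and 7 under APO and 1 under VER for CWR22Rv1, those lower under APO in that line were 3, the corepressors lower 2 and the cell cycle and translation targets higher 2. The metabolic targets higher were 1 under APO for C4-2B MDVR and 0 under VER for CWR22Rv1 with TPM and with non-mitochondrial scaling. The latter also gave 0 and 1 turnover genes higher in these comparisons, and under APO for CWR22Rv1 0 MLX branch genes and 0 cofactors higher, 1 nucleolar target higher and 4 MLX branch genes lower. Scaling to a median ratio of 1 left 1 MLX branch gene lower under VER for CWR22Rv1. A pseudocount of 1 or a floor of 1 FPKM left 0 cell cycle and translation targets higher under APO in either line, as did a floor of 0.1 FPKM in all 3 libraries for CWR22Rv1, and that pseudocount left 1 turnover gene higher under VER for CWR22Rv1. For all genes higher under VER for CWR22Rv1, a floor of 1 FPKM gave 4439 and protein-coding genes alone gave 4323.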
